A study of Mus musculus with 6 samples.

Results

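The 38 genes described here encode the enzymes and carriers that take sugar into the cell and down to pyruvate and lactate, the enzymes of the pentose phosphate pathway, and the proteins that bring pyruvate into mitochondria and convert it to acetyl-CoA. They were chosen by gene symbol for their place in these pathways and not by their values, and all 38 were among the 19225 genes listed in the deposited table. RNA came from CD11b+ cells enriched with magnetic beads from the brains of male mice that had not been stressed, with 1 library per mouse. The sample labels give 3 mice as *Cnr1*-/- (strain *Cnr1* tm1Zim, genotype d/d), a constitutive allele made to remove the cannabinoid receptor CB1 from every cell of the body, and 3 as *Cnr1*+/+ (strain C57BL6/J, genotype wt/wt), described as littermates in the methods of the study. All are labelled 3 months old, whereas the methods give a younger age. No treatment is given for either group, and CD11b is also carried by myeloid cells other than microglia. The comparison asks whether the RNA of sugar-metabolising genes in microglia differed between the genotype labels.

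Glycolysis splits glucose into pyruvate in the cytosol and yields ATP without oxygen. Its first intermediate, glucose 6-phosphate, can instead enter the pentose phosphate pathway, which supplies NADPH and ribose phosphate, and pyruvate is either reduced to lactate or passed into mitochondria for oxidation. Microglia, the resident macrophages of the brain, are known to raise glycolysis when they are activated, and myeloid cells use NADPH for the oxidative burst.

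Values are CPM, the reads of a gene relative to all reads of its library, after the TMM scaling of the authors, and were read from the 3′ ends of polyadenylated transcripts. Since reads come from the transcript end, CPM is not divided by transcript length, and how evenly different ends were captured was not tested. The step that 1 read makes in a library gives a TMM-scaled library size of 7708813 to 10723828 reads, which is not the count of reads sequenced. A value of 0 then allows up to 3 reads or 0.280 to 0.389 CPM, which covers counting error only. The listed genes held 50.1, 54.1 and 54.3% of that size in the libraries labelled *Cnr1*+/+ (replicates 1, 2 and 3). They held 53.5, 59.1 and 58.1% in those labelled *Cnr1*-/-. *Cnr1* itself was listed at 0 CPM in the 3 libraries labelled *Cnr1*+/+ and at 1.21 to 1.79 CPM in the 3 labelled *Cnr1*-/-, which goes against the labels, so every direction below is that of the libraries labelled so. The methods place the disruption, a neomycin cassette, in the coding region of *Cnr1*, whereas reads were taken from the transcript end, and reads outside the disrupted part do not check the genotype. Microglial markers summed to 15231 to 17684 CPM in the 6 libraries. The library labelled *Cnr1*-/- replicate 2 stood apart by blood cell RNA, with 12 neutrophil markers summing to 4153 CPM where the other 5 libraries held 308 to 573 CPM, 7 erythrocyte markers to 2342 CPM against 136 to 237 CPM, and 6 monocyte markers to 112 CPM against 28.4 to 36.8 CPM.

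The genes differed far more from each other than between genotype labels. Mean levels over the 6 libraries ran from 2.95 to 257 CPM with a median of 23.8 CPM, close to the median of 26.0 CPM over all genes tested. The fructose transporter gene *Slc2a5* and the hexokinase gene *Hk2* alone held 32.8% of the summed CPM of the 38 genes. Summed over all 38, the libraries labelled *Cnr1*+/+ held 1454, 1468 and 1676 CPM (replicates 1, 2 and 3, the order used throughout) and those labelled *Cnr1*-/- held 1415, 1692 and 1560 CPM, so the sums overlapped. In bulk RNA, fewer cells of a type and less RNA per cell cannot be told apart.

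**Figure D1:**
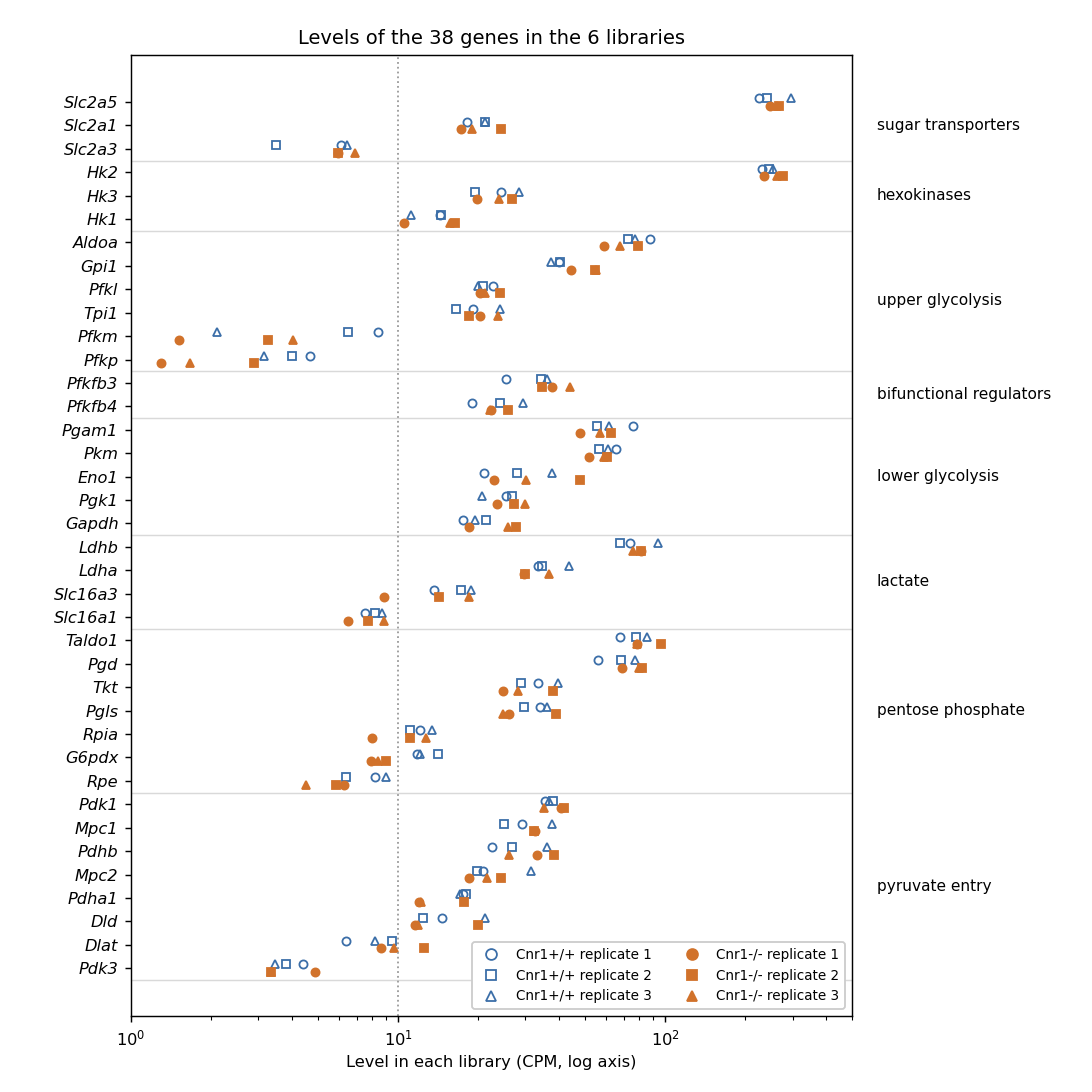
Level of each of the 38 genes in each library, in CPM on a log axis, with genes grouped by role and ordered by mean level. Open blue symbols are the 3 libraries labelled *Cnr1*+/+, filled orange symbols the 3 labelled *Cnr1*-/-, and the dotted line marks the mean of 10 CPM needed for testing; *Slc2a5* and *Hk2* lie far to the right of the other genes in all 6 libraries.

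A mean of at least 10 CPM was reached by 31 of the 38 genes, and these were tested with limma among 6659 genes. Relative to the libraries labelled *Cnr1*+/+, 16 of the 31 were higher and 15 lower in those labelled *Cnr1*-/-, with log2 fold changes between −0.58 and 0.38 and a median of 0.02. Over all genes tested the median was 0.08, with quartiles of −0.04 and 0.20, and 68.4% were higher. The split depended on the scaling between libraries. After centring the libraries on their medians, under quantile normalisation and after rescaling without mitochondrially encoded genes, 12, 12 and 9 members were higher and 19, 19 and 22 lower, while the median of all genes was 0.01, −0.00 and −0.02. The glucose 6-phosphate isomerase gene *Gpi1* was higher and the glucose 6-phosphate dehydrogenase gene *G6pdx* lower at a nominal p under 0.05. These 2 of 31 stand beside 6.02% of all genes tested that passed in either direction (5.09% higher and 0.931% lower). Without *Cnr1*-/- replicate 2, the library with the blood cell markers, 0 of the 31 passed by limma, with 251 genes in all instead of 401, and 0 also passed without *Cnr1*-/- replicate 3 and without *Cnr1*+/+ replicate 3. The genes that passed were higher in the libraries labelled *Cnr1*-/- for 84.5% as reported and for 52.5%, 45.3% and 40.1% under the other scalings. At the stricter threshold (adjusted p under 0.1 and more than 1.5-fold) no member passed, where 0.0901% of all genes tested did, and the smallest adjusted p of a member was 0.792 (limma, Benjamini-Hochberg). Groups did not overlap for the same 2 genes, beside 11% of all genes tested (8.85% higher and 2.13% lower).

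The spread between libraries of the same label limited what could be seen. With 1 library per mouse, differences between mice and technical ones cannot be told apart in it. The median within-group SD was 0.214 on the log2 scale for the tested members and 0.215 for all genes tested. The 95% confidence interval of a log2 fold change extended by 0.24 to 0.56 on each side. It lay within a 1.5-fold change in both directions for 21 of the 31 genes and reached past it for 10.

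**Figure D2:**
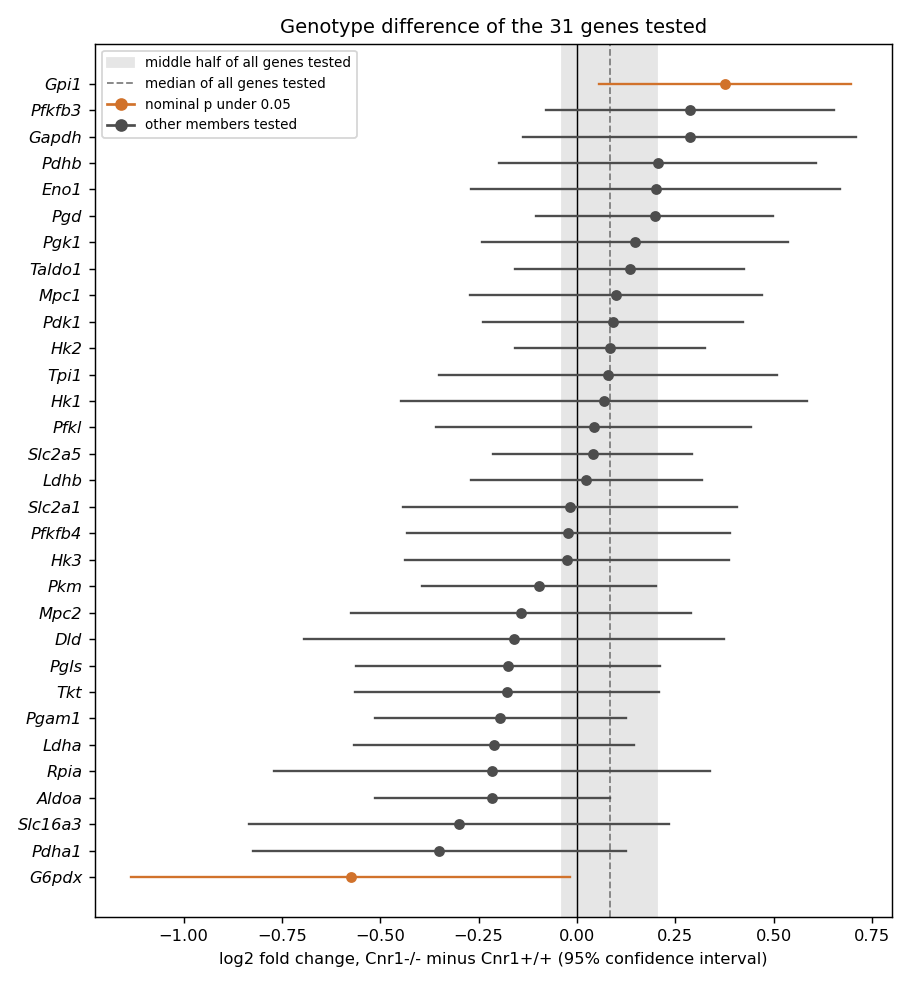
Log2 fold change of the 31 genes tested, libraries labelled *Cnr1*-/- minus those labelled *Cnr1*+/+, with 95% confidence intervals from limma. Orange marks *Gpi1* and *G6pdx*, whose intervals leave out 0; the grey band spans the quartiles of all genes tested, −0.04 to 0.20, and the dashed line their median of 0.08.

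A single gene held most of the CPM of the 3 sugar transporter members, and another most of that of the 3 hexokinase members. These are RNA shares and not uptake or phosphorylation. Other transporter genes such as *Slc2a8* (mean 15.0 CPM) and *Slc2a9* (8.20 CPM) are outside the sum. *Slc2a5* encodes GLUT5, a fructose transporter used as a microglial marker in the brain, and it was measured at 225, 239.8 and 297 CPM in the libraries labelled *Cnr1*+/+ and at 248, 268 and 262 CPM in those labelled *Cnr1*-/-. The group labelled *Cnr1*-/- lay inside the range of the other, with a log2 fold change of 0.04 (95% CI −0.21 to 0.29). *Slc2a1*, which encodes the widely expressed glucose transporter GLUT1, stood at 18.2, 21.3 and 21.2 CPM against 17.2, 24.2 and 19.0 CPM. *Slc2a3*, which encodes the high-affinity glucose transporter GLUT3, was at 6.10, 3.49 and 6.42 CPM against 5.95, 5.97 and 6.92 CPM and was too low to be tested. *Slc2a5* thus held 89.9 to 91.5% of the CPM of the 3 transporter genes in every library.

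*Hk2* encodes a hexokinase that binds the outer mitochondrial membrane. Its levels were 231, 246 and 253 CPM in the libraries labelled *Cnr1*+/+ and 234, 278 and 262 CPM in those labelled *Cnr1*-/-, with a log2 fold change of 0.08 (95% CI −0.16 to 0.32). The groups overlapped. *Hk3*, a hexokinase gene of myeloid cells, had 24.3, 19.5 and 28.3 CPM against 19.8, 26.8 and 23.9 CPM, and *Hk1*, the hexokinase gene of most other brain cells, had 14.4, 14.5 and 11.1 CPM against 10.5, 16.3 and 15.6 CPM. *Hk2* held 85.7 to 88.5% of the 3 hexokinase genes, *Hk3* 6.96 to 9.69% and *Hk1* 3.82 to 5.33%. In the library with the blood cell markers, *Hk3* lay at 26.8 CPM, inside the range of the other 5.

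**Figure D3:**
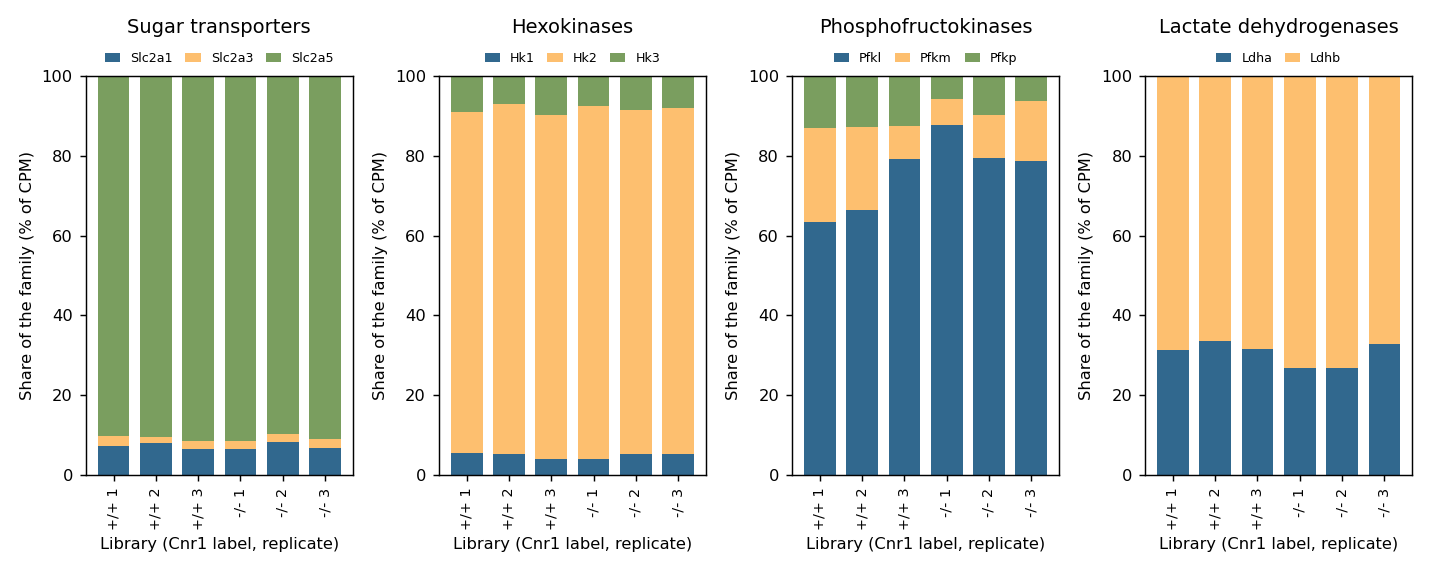
Share of each gene in the summed CPM of its family, in percent, for each of the 6 libraries named by *Cnr1* label and replicate. *Slc2a5* holds 89.9 to 91.5% and *Hk2* 85.7 to 88.5% in every library, *Pfkl* 63.4 to 87.9% and *Ldhb* 66.4 to 73.2%.

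The promoters of *Slc2a5* and *Hk2* are shown because these genes held most of the CPM of the members of their families. Each stretch runs from 250 bases before to 50 bases after the transcription start in RefSeq (GRCm38.p6), 5′ to 3′ on the strand of the gene. Capitals mark ACGTG on either strand, the core of the element bound by HIF-1, the oxygen-responsive activator of glycolytic genes. The *Slc2a5* stretch, chr4:150119094-150119393 on the plus strand, holds no match, and that of *Hk2*, chr6:82774405-82774704 on the minus strand, holds 2, both in reverse orientation.
Slc2a5: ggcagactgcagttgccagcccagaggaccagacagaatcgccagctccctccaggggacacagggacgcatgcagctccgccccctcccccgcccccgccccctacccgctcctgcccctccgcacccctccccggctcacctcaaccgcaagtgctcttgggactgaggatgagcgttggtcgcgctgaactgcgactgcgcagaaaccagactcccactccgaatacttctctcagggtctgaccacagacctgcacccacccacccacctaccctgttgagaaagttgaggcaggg
Hk2: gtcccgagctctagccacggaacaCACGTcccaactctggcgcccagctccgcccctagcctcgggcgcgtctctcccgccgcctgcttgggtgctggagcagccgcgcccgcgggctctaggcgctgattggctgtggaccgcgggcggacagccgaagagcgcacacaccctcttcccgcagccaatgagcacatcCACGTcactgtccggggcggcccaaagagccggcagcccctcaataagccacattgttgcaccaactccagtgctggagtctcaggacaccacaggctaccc

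Among the 37 member genes with a promoter in the table, 17 held ACGTG in at least 1 promoter (45.9%), against 21.8% of 27025 genes. Counted by promoter it was 20 of 51 for the members (39.2%) and 19.6% of all 32851. The letters TGACNNNGC, which match the core of the antioxidant response element bound by NRF2, were present on either strand in 7 of the 37 genes (18.9%) against 13.99%. The members' promoters held 60.8% G and C on average and all promoters 53.8%, and no test of these shares was made.

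In upper glycolysis, *Gpi1* was the gene that passed at a nominal p. *Gpi1* (chromosome 7, 34201330 to 34230337, minus strand, mm10) encodes the enzyme that turns glucose 6-phosphate into fructose 6-phosphate, next to the branch into the pentose phosphate pathway. It was measured at 40.1, 40.4 and 37.3 CPM in the libraries labelled *Cnr1*+/+ (39.3 ± 1.69 CPM, SD, n = 3) and at 44.3, 54.4 and 55.0 CPM in those labelled *Cnr1*-/- (51.2 ± 6.03 CPM, SD, n = 3). All 3 libraries labelled *Cnr1*-/- were above all 3 labelled *Cnr1*+/+. The log2 fold change was 0.38 (SE 0.156, 95% CI 0.06 to 0.70). By limma the nominal p was 0.0233 and the p after adjustment 0.792, and the two-sided exact permutation test gave p = 0.1, the smallest that 3 against 3 libraries allow. Between 309 and 584 reads lay behind each value. The nominal p no longer passed under quantile normalisation (log2 fold change 0.29), under rescaling of the libraries without mitochondrially encoded genes (0.28), or without *Cnr1*-/- replicate 2, *Cnr1*-/- replicate 3 or *Cnr1*+/+ replicate 3. With each library left out in turn, the log2 fold change lay between 0.32 and 0.48.

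No other tested gene of upper glycolysis passed at a nominal p with the deposited scaling. *Aldoa*, which encodes the aldolase that splits fructose 1,6-bisphosphate, was at 87.7, 72.5 and 77.3 CPM against 58.9, 79.0 and 67.5 CPM, with a log2 fold change of −0.22 (adjusted p = 0.887). Its groups overlapped through *Cnr1*-/- replicate 2, whereas under the 3 other scalings of the libraries they did not overlap and it passed at a nominal p under 0.05. *Tpi1*, which encodes triosephosphate isomerase, lay between 16.5 and 23.98 CPM in the 6 libraries.

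Phosphofructokinase, the main control point of glycolysis, has 3 genes. *Pfkl* was at 22.7, 20.9 and 19.98 CPM in the libraries labelled *Cnr1*+/+ and at 20.4, 24.1 and 21.1 CPM in those labelled *Cnr1*-/-, with a log2 fold change of 0.04. *Pfkp* was lower in every library labelled *Cnr1*-/-, with 4.67, 3.99 and 3.16 CPM against 1.299, 2.89 and 1.67 CPM, but its values rest on 12 to 40 reads. Without the filter on low values its log2 fold change was −1.03 (SE 0.536, adjusted p = 0.954 by limma). *Pfkm*, at 14 to 65 reads, had 8.43, 6.48 and 2.10 CPM against 1.52, 3.26 and 4.05 CPM, with overlapping groups.

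As a share of the 3 genes, *Pfkp* made up 13.04, 12.7 and 12.5% in the libraries labelled *Cnr1*+/+ and 5.61, 9.57 and 6.22% in those labelled *Cnr1*-/-, a difference that was not tested because *Pfkp* itself is too low. *Pfkl* made up 63.4 to 79.2% and 78.7 to 87.9%. Fructose 2,6-bisphosphate, the activator of phosphofructokinase, is made and removed by the bifunctional enzymes of *Pfkfb3* and *Pfkfb4*. *Pfkfb3* was at 25.3, 34.3 and 36.2 CPM against 37.6, 34.5 and 44.1 CPM (log2 fold change 0.29, adjusted p = 0.857), and *Pfkfb4* at 18.9, 24.04 and 29.3 CPM against 22.3, 25.8 and 22.2 CPM. The groups of both genes overlapped.

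In lower glycolysis none of the 5 genes passed. *Pgam1* (phosphoglycerate mutase) lay between 48.1 and 75.9 CPM, *Pkm* (pyruvate kinase) between 51.7 and 65.6 CPM and *Pgk1* (phosphoglycerate kinase) between 20.6 and 29.9 CPM, all with overlapping groups. *Gapdh*, which encodes glyceraldehyde 3-phosphate dehydrogenase, was listed at 17.5, 21.3 and 19.4 CPM against 18.5, 27.6 and 25.9 CPM, with a log2 fold change of 0.29 (adjusted p = 0.9004). This is below the level of *Pgam1* and *Pkm*, which act later in the same pathway. In GENCODE vM21, 172 other annotated genes share an identical run of at least 50 bases with the last 300 bases of *Gapdh* transcripts. Reads from this end can be divided among them, or dropped where they match more places than the authors' alignment allowed. Of these genes, 13 were listed, with 4.46 to 8.17 CPM in all, and *Gapdh* held 70.4 to 85.3% of the sum of itself and these 13. That sum leaves out any dropped reads, so the level of *Gapdh* may not be comparable with that of *Pgam1* or *Pkm*, which was not tested.

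Enolase gave the widest range of any tested member. *Eno1* was at 21.0, 27.8 and 37.6 CPM in the libraries labelled *Cnr1*+/+ and at 22.9, 48.2 and 30.2 CPM in those labelled *Cnr1*-/-, a 2.30-fold range that ran across both groups. Its near-identical copy *Eno1b* was at 42.2, 38.9 and 31.5 CPM against 45.2, 18.8 and 27.4 CPM, low where *Eno1* was high. The 2 genes together were at 63.2, 66.7 and 69.1 CPM against 68.1, 67.0 and 57.6 CPM, a far narrower range. *Eno1* took between 33.2 and 71.9% of that sum. The log2 fold change was 0.20 for *Eno1* alone (adjusted p = 0.941) and −0.05 for the sum (SE 0.141, adjusted p = 0.978), so the level of either gene alone is uncertain where the authors' counting divided shared reads.

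**Figure D4:**
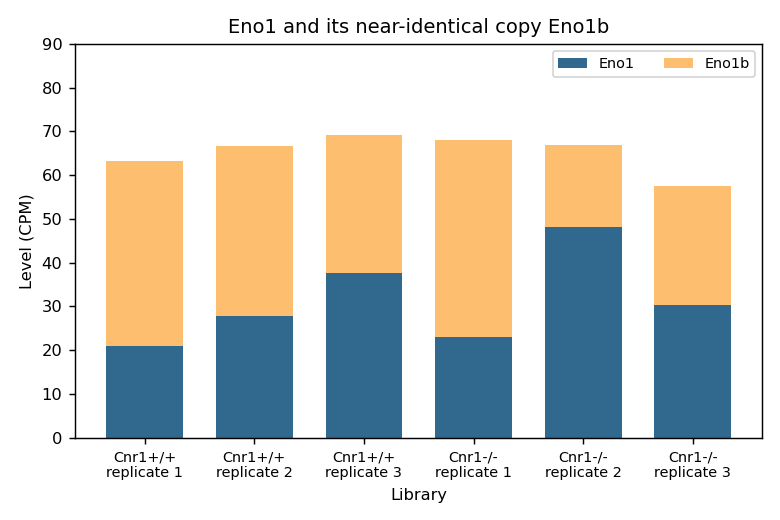
Level of *Eno1* and of its near-identical copy *Eno1b* in each library, stacked, in CPM. The share of *Eno1* runs from 33.2 to 71.9% while the height of the bars stays between 57.6 and 69.1 CPM.

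Other members also share their transcript ends with annotated genes. These were *Ldha* (13 genes), *Aldoa* (6), *Pkm* (5), *Tpi1* and *Mpc1* (2 each), and *Gpi1*, *Ldhb* and *G6pdx* (1 each). The copy of *Gpi1* was listed at 0 to 1.40 CPM, and with it added the log2 fold change was 0.36 (adjusted p = 0.797), and the nominal p still passed. The copy of *G6pdx* was not among the listed genes.

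Lactate is made and used by the tetramers of *Ldha* and *Ldhb*. *Ldhb*, the subunit gene linked to lactate use, was at 74.0, 68.0 and 94.2 CPM in the libraries labelled *Cnr1*+/+ and 81.0, 81.5 and 75.6 CPM in those labelled *Cnr1*-/-, with a log2 fold change of 0.02 (95% CI −0.27 to 0.32). *Ldha*, linked to lactate production, was at 33.6, 34.4 and 43.6 CPM against 29.6, 29.9 and 36.7 CPM (log2 fold change −0.21, adjusted p = 0.9004). *Ldhb* exceeded *Ldha* in all 6 libraries and held 66.4 to 73.2% of their sum, although the groups of either gene overlapped. Since 13 annotated genes share the transcript end of *Ldha* and 1 that of *Ldhb*, this share may depend on how shared reads were counted. *Slc16a3*, which encodes the lactate exporter MCT4, had 13.6, 17.2 and 18.8 CPM against 8.88, 14.3 and 18.5 CPM, and *Slc16a1*, which encodes MCT1, had 7.52, 8.18 and 8.73 CPM against 6.50, 7.74 and 8.82 CPM. The lactate group as a whole summed to 141 ± 21.5 CPM against 133 ± 6.80 CPM (SD, n = 3 each).

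In the pentose phosphate pathway *G6pdx* was lower in the libraries labelled *Cnr1*-/-. *G6pdx* (chromosome X, 74409483 to 74429195, minus strand, mm10) encodes the rate-limiting enzyme of the NADPH-producing branch. It was measured at 11.8, 14.2 and 12.1 CPM in the libraries labelled *Cnr1*+/+ (12.7 ± 1.29 CPM, SD, n = 3) and at 7.90, 9.05 and 8.44 CPM in those labelled *Cnr1*-/- (8.46 ± 0.572 CPM, SD, n = 3). Every library labelled *Cnr1*-/- was below every library labelled *Cnr1*+/+. The log2 fold change was −0.58 (SE 0.272, 95% CI −1.13 to −0.02), 1.49-fold lower. By limma the nominal p was 0.0436 and the p after adjustment 0.821, and the two-sided exact permutation test again gave p = 0.1. The values rest on 71 to 142 reads. In the 5 leave-one-out fits that held the gene the nominal p did not pass (log2 fold change −0.62 to −0.53), and without *Cnr1*+/+ replicate 2 its mean fell under 10 CPM, so it was not tested there. Under the other 3 scalings its log2 fold change was −0.70 to −0.65, and the nominal p passed.

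*G6pdx* is overlapped on the opposite strand by *Ikbkg*, which encodes the NEMO subunit of the IkB kinase complex. *Ikbkg* was at 6.49, 8.78 and 12.9 CPM against 11.6, 16.6 and 12.2 CPM, with a log2 fold change of 0.55 (SE 0.290, adjusted p = 0.838), the direction opposite to that of *G6pdx*. The library kit keeps strand, and whether the counting used it is not given in the sources used here.

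The promoters of *Gpi1* and *G6pdx* are shown because these were the 2 genes that passed, and their enzymes compete for the same substrate. The window and the build are as for *Hk2*. The *Gpi1* stretch, chr7:34230287-34230586 on the minus strand, holds neither motif. In that of *G6pdx*, chrX:74428831-74429130 on the minus strand, capitals mark 1 ACGTG and 1 TGACNNNGC in reverse orientation, which do not overlap.
Gpi1: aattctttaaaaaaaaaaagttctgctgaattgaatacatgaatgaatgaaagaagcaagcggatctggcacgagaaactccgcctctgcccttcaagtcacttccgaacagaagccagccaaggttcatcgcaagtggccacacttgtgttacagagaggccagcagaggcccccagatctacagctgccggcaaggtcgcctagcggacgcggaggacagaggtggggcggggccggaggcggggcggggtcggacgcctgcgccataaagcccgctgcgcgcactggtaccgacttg
G6pdx: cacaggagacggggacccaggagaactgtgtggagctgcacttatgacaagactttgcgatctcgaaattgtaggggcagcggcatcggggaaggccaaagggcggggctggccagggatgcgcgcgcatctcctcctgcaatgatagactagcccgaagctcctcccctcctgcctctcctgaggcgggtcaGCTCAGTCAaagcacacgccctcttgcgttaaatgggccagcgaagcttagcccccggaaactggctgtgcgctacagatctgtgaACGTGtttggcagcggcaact

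None of the tested genes that follow *G6pdx* passed at a nominal p. *Pgd*, which encodes the next NADPH-producing dehydrogenase, lay at 56.3, 68.6 and 77.1 CPM against 69.1, 81.7 and 79.8 CPM (log2 fold change 0.20, adjusted p = 0.9004), so the 2 dehydrogenase genes of this branch had estimates of opposite sign. *Pgls* (6-phosphogluconolactonase) lay between 24.8 and 38.9 CPM. *Rpe*, which encodes ribulose phosphate epimerase, was lower in every library labelled *Cnr1*-/-, with 8.17, 6.39 and 9.04 CPM against 6.28, 5.87 and 4.53 CPM. It was below the mean needed for testing, at 38 to 86 reads, and without that filter its log2 fold change was −0.49 (SE 0.338, adjusted p = 0.957). *Kansl1l* lies on the strand opposite to *Rpe*, and *Pitrm1* on that opposite to *Pfkp*.

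*Rpia* (ribose phosphate isomerase) lay between 8.01 and 13.4 CPM and *Tkt* (transketolase) between 24.7 and 39.6 CPM. *Taldo1*, which encodes transaldolase and was the third most abundant of the 38 genes, was at 67.7, 77.6 and 85.4 CPM against 78.6, 96.4 and 78.2 CPM. The group summed to 244 ± 25.5 CPM in the libraries labelled *Cnr1*+/+ and 246 ± 31.3 CPM in those labelled *Cnr1*-/- (SD, n = 3 each). Of its 6 tested genes, 2 were higher and 4 lower, and *G6pdx* was the 1 with a nominal p under 0.05.

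**Figure D5:**
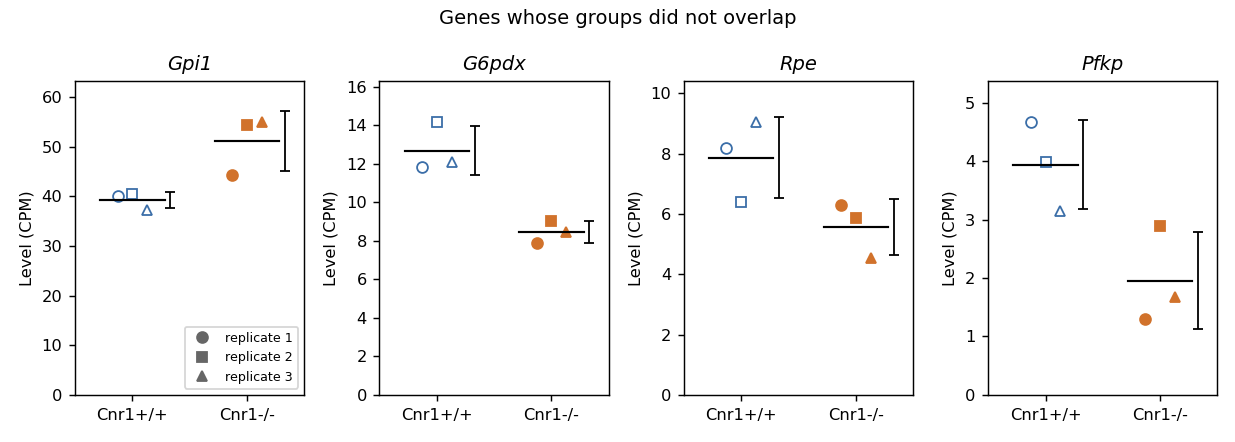
Level in each library, in CPM from 0, of the 4 genes whose groups did not overlap among all 38; symbols are replicates, horizontal bars are means and error bars are SD (n = 3). *Gpi1* is higher and *G6pdx*, *Rpe* and *Pfkp* are lower in the libraries labelled *Cnr1*-/-, with *Rpe* and *Pfkp* below 10 CPM throughout.

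Counted over all 38 genes with no filter on low values, groups did not overlap for 4 (*Gpi1* higher, and *G6pdx*, *Rpe* and *Pfkp* lower). Over all 19225 genes this was so for 10.1% (6.56% higher and 3.57% lower).

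Pyruvate enters mitochondria through the carrier formed by the products of *Mpc1* and *Mpc2*. *Mpc1* was at 29.2, 24.9 and 37.9 CPM against 32.5, 32.4 and 32.3 CPM, and *Mpc2* at 20.9, 19.8 and 31.6 CPM against 18.4, 24.3 and 21.6 CPM, with overlapping groups for both. Pyruvate dehydrogenase then forms acetyl-CoA. Of its subunit genes, *Pdha1* was at 17.5, 18.0 and 17.0 CPM against 12.02, 17.6 and 12.2 CPM, with a log2 fold change of −0.35 (adjusted p = 0.885). The groups overlapped through *Cnr1*-/- replicate 2, the library with the blood cell markers, and under the 3 other scalings they did not overlap with all 6 libraries kept (log2 fold change −0.45 to −0.43). *Pdhb* lay between 22.4 and 38.2 CPM, *Dlat* between 6.36 and 12.5 CPM, and *Dld*, shared with other dehydrogenase complexes, between 11.6 and 21.2 CPM.

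Pyruvate dehydrogenase is switched off by kinases. *Pdk1*, which HIF-1 is known to induce, was at 35.4, 38.01 and 36.8 CPM against 40.8, 41.9 and 35.1 CPM (log2 fold change 0.09), and *Pdk3* at 4.41, 3.79 and 3.47 CPM against 4.87, 3.36 and 3.34 CPM. *Pdk1* held 88.9 to 92.6% of the 2 kinase genes. No gene of pyruvate entry passed at a nominal p under 0.05 with the deposited scaling, *Pdha1* did after rescaling without mitochondrially encoded genes, and the group summed to 165 ± 23.2 CPM against 168 ± 19.8 CPM (SD, n = 3 each).

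Summed by role, the genes differed little between the labels. The log2 ratio of the mean sums was 0.03 for sugar transporters, 0.08 for hexokinases, −0.02 for upper glycolysis, 0.15 for the bifunctional regulators, 0.00 for lower glycolysis, −0.08 for the lactate group, 0.01 for the pentose phosphate pathway and 0.02 for pyruvate entry. In all 8 groups the sums of the labels overlapped, and after rescaling without mitochondrially encoded genes the ratios ran from −0.18 to 0.06. With each library left out in turn, the ratio ran from 0.0052 (without *Cnr1*+/+ replicate 1) to 0.28 (without *Cnr1*+/+ replicate 3) for the bifunctional regulators, from 0.014 (without *Cnr1*-/- replicate 2) to 0.15 (without *Cnr1*-/- replicate 1) for hexokinases, and from below to above 0 for each of the other 6 groups, within −0.15 to 0.15. Among the libraries, *Cnr1*-/- replicate 1 was the lowest for 16 of the 38 genes (42.1%), beside 15.0% of all genes tested, and *Cnr1*+/+ replicate 1 for 10 (26.3%), beside 38.1%. The highest value was that of *Cnr1*+/+ replicate 3 for 13 genes (34.2%), beside 23.2%, and that of *Cnr1*-/- replicate 2 for 12 (31.6%), beside 31.7%.

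The wider pathway was followed through 8 lists of 112 genes, none of them members, of which 90 were listed and 48 tested. Of these, 5 were higher at a nominal p under 0.05 and 0 were lower, beside 5.09% and 0.931% of all genes tested, with a median log2 fold change of 0.09. After centring the libraries on their medians, 4 were higher and 3 lower, and rescaling without mitochondrially encoded genes gave 1 higher and 3 lower. Without *Cnr1*-/- replicate 2 the counts were 2 higher and 0 lower, and without *Cnr1*+/+ replicate 1 they were 2 higher and 1 lower. With the deposited scaling, none of the 17 tested genes of the tricarboxylic acid cycle, which oxidises acetyl-CoA, passed, with a median of −0.01. With that scaling none passed among other sugar transporters (1 tested), other enzymes of glycolysis (5), the lactate list (3) or the pentose phosphate list (3). The medians of these lists were 0.10, −0.38, 0.03 and 0.08. The −0.38 is the value of 1 gene, *Eno1b*, whose level alone is uncertain because it shares reads with *Eno1*. The others of these 5 were *Eno3* (−0.55), *Pgm2l1* (−0.49), *G6pc3* (0.04) and *Aldoc* (0.23). Groups did not overlap for 6 of the 48, beside 11% of all genes tested. *Txnip*, *Vhl*, *Mlx*, *Dlst* and *Slc16a7* were higher in every library labelled *Cnr1*-/- and *Pgm2l1* was lower (14.7, 15.2 and 15.04 CPM against 12.9, 8.67 and 10.6 CPM, log2 fold change −0.49, adjusted p = 0.829). *Mlx*, *Dlst*, *Slc16a7* and *Pgm2l1*, named after their values were seen, did not pass at a nominal p.

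Of the 10 tested regulators of glycolysis, 3 were higher at a nominal p under 0.05. *Txnip*, which encodes a glucose-induced protein that restrains glucose uptake, was at 124, 108 and 137 CPM against 164, 149 and 144 CPM, with a log2 fold change of 0.31 (adjusted p = 0.792 by limma). *Vhl*, which encodes the ubiquitin ligase subunit that marks HIF-1 alpha for removal, was at 24.9, 30.5 and 24.7 CPM against 32.5, 42.7 and 32.2 CPM (log2 fold change 0.41, adjusted p = 0.809). The groups of both did not overlap. *Mlxip*, which encodes the glucose-sensing factor MondoA, was at 8.69, 11.9 and 14.3 CPM against 19.6, 19.1 and 13.6 CPM (log2 fold change 0.59, adjusted p = 0.792), with overlapping groups.

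Of the 2 tested genes of the pyruvate list, 1 passed at a nominal p. *Pdp2*, which encodes a phosphatase that reactivates pyruvate dehydrogenase, was at 12.3, 21.8 and 14.8 CPM against 16.7, 30.1 and 26.0 CPM (log2 fold change 0.57, adjusted p = 0.792). Among the other HIF-1 targets, 1 of 7 passed at a nominal p. This was *Ddit4*, an inhibitor of mTORC1 that is also induced by glucocorticoids, at 44.6, 30.9 and 86.7 CPM against 214, 184 and 61.9 CPM (log2 fold change 1.45, adjusted p = 0.0568), past the stricter threshold. Its groups overlapped through *Cnr1*-/- replicate 3. Under the other 3 scalings, *Txnip* and *Pdp2* each kept a nominal p under 0.05 in 1, *Vhl* and *Mlxip* in 2 and *Ddit4* in all 3, where the adjusted p of *Ddit4* was 0.526 to 0.604. With each library left out in turn, the nominal p passed in 2 of 6 fits for *Pdp2*, 3 for *Vhl* and for *Mlxip*, 4 for *Txnip* and 6 for *Ddit4*.

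The most abundant genes of the lists without a call were *Slc16a6*, a monocarboxylate transporter gene at 250.4 to 309 CPM and so near the level of *Hk2*, *Aldoc* at 50.9 to 99.7 CPM, *Sdhb* at 53.3 to 68.2 CPM, *Prps2* at 15.3 to 25.1 CPM and *Slc2a8* at 9.85 to 20.7 CPM. *Aldoc* is the aldolase gene of astrocytes in the brain, and 7 astrocyte markers summed to 259 to 467 CPM in these libraries, lowest in *Cnr1*+/+ replicate 3 and highest in *Cnr1*-/- replicate 3, where *Aldoc* was also lowest and highest. Their part in its level was not tested. Oligodendrocyte markers summed to 423 to 856 CPM, border-associated macrophage markers to 96.4 to 148 CPM, endothelial markers to 23.4 to 37.1 CPM and neuronal markers to 31.7 to 37.4 CPM. The 11 genes of the response to cell isolation summed to 135 to 151 CPM against 143 to 169 CPM.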

How the data were processed

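RNA of CD11b+ cells from 3 mice labelled *Cnr1*+/+ and 3 labelled *Cnr1*-/- was analysed, 1 library per mouse. Reads of 3′ ends (QuantSeq FWD kit) were trimmed, aligned to mm10 with STAR and quantified per gene by expectation-maximisation in Partek Flow, and the deposited values are CPM to which the authors applied TMM scaling. Since 83.4 to 85.5% of values per library were whole numbers of reads (within 0.02) once divided by the value of a single read, no count model was used. Columns were matched to samples through the sample descriptions.

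The 38 genes, the wider lists and the tests were chosen with earlier results of these data known. Genotype labels were compared with limma (version 3.58.1, R 4.3.3; linear fits moderated by eBayes with a trend, two-sided, genotype as sole factor) on log2(CPM + 0.1), so fold changes of low genes are understated, where the mean reached 10 CPM, and p-values were adjusted by Benjamini-Hochberg. Single genes were also compared by an exact permutation test. All members were named, with all values for those with a nominal p under 0.05 or groups that did not overlap, the 5 most abundant and members of gene families. *Gapdh*, *Eno1*, *Pgd* and *Pdha1* were given in full, and *Pgam1*, *Pkm*, *Ikbkg*, *Kansl1l* and *Pitrm1* named beside them, after their values were seen. Shared transcript ends were found in GENCODE vM21 and promoters were those of RefSeq; *Slc2a3* had none there. Alternatives were a pseudocount of 1, no filter, a minimum mean of 20, 3 other scalings, limma voom, a replicate block, each library left out, and, added after seeing the data, members summed with their copies. The limma fit with the main setting was tested on simulated counts.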

Additional observations from a re-analysis of the deposited data

How the results depend on the processing

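Directions changed with the scaling between libraries, and the causes were not tested. The median log2 fold change of all genes was 0.08 as reported, 0.01 after centring each library on its median, −0.00 after quantile normalisation and −0.02 after rescaling without mitochondrially encoded genes, and 84.5%, 52.5%, 45.3% and 40.1% of the genes with a nominal p under 0.05 were then higher in the libraries labelled *Cnr1*-/-. Members counted 16 higher and 15 lower as reported, 12 and 19 under centring and under quantile normalisation, and 9 and 22 under rescaling. Members whose groups did not overlap numbered 4, 4 and 6 of 31 under these scalings, beside 10.5%, 10.5% and 10.6% of all genes tested, and 0 genes of all tested then passed the adjusted threshold by limma (adjusted p under 0.1 and more than 1.5-fold), with 375, 360 and 354 at an unadjusted p under 0.05. Log2 fold changes changed sign under centring for *Slc2a5* (−0.035), *Hk1* (−0.0074), *Pfkl* (−0.033) and *Ldhb* (−0.052), under quantile normalisation for *Slc2a5* (−0.041), *Hk1* (−0.0073), *Pfkl* (−0.029) and *Ldhb* (−0.070), and under rescaling for *Slc2a5* (−0.059), *Hk1* (−0.031), *Hk2* (−0.016), *Pfkl* (−0.057), *Tpi1* (−0.020), *Ldhb* (−0.075) and *Pdk1* (−0.0081). Besides *Gpi1* and *G6pdx*, *Aldoa* and *Pdha1* did not overlap under all 3, and *Ldha* and *Pkm* under rescaling. *Aldoa* passed at a nominal p under centring (−0.29), quantile normalisation (−0.30) and rescaling (−0.31), and *Pdha1* under rescaling (−0.45). *Eno1* summed with its copies gave −0.050.

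Without the filter on low values, 4 of 38 members did not overlap, beside 10.1% of all genes. By limma 993 genes had a nominal p under 0.05 and 14 passed the adjusted threshold. A minimum mean of 20 removed *G6pdx*, leaving 1 of 25 members with a nominal p under 0.05, where 263 of 4126 genes passed in all. Groups did not overlap for 1 of the 25, beside 11.6% of all genes tested. A pseudocount of 1 and limma voom changed no member's call.

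Leaving out 1 library at a time gave 0 to 1 members with a nominal p under 0.05, 0 to 0 past the adjusted threshold, 2 to 8 whose groups did not overlap (6.45 to 25.8%, beside 17.5 to 26.1% of all genes tested), a median member log2 fold change of −0.090 to 0.072, 251 to 600 genes with a nominal p under 0.05 and 1 to 24 past the adjusted threshold. The lowest count of 251 was that without *Cnr1*-/- replicate 2 and the highest of 600 that without *Cnr1*+/+ replicate 3. Sign changed for *Slc2a1* (−0.16 to 0.088), *Slc2a5* (−0.042 to 0.16), *Hk1* (−0.055 to 0.27), *Hk3* (−0.17 to 0.10), *Pfkl* (−0.029 to 0.093), *Tpi1* (−0.047 to 0.22), *Pfkfb4* (−0.18 to 0.13), *Eno1* (−0.090 to 0.44), *Ldhb* (−0.075 to 0.16), *Mpc1* (−0.038 to 0.26), *Mpc2* (−0.27 to 0.068) and *Dld* (−0.41 to 0.058).

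Same-numbered libraries of the 2 groups did not deviate together (r = −0.06, −0.03 and −0.03 across genes). Mice taken as pairs could still give such values, so pairing by number was not excluded. With the replicate block 421 genes had a nominal p under 0.05 instead of 401, the same 2 members passed, and no member's call changed. Of the 48 tested genes of the wider lists, 5 were then higher and 1 lower at a nominal p under 0.05, instead of 5 and 0. Depth limits *Pfkp*, *Pfkm*, *Pdk3*, *Slc2a3* and *Rpe* most, with fewer than 40 reads in at least 1 library.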
